A study of Homo sapiens with 4 samples.

Results

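The nuclear genes of the mitochondrial respiratory chain were examined in H1299, a human lung cancer cell line of the non-small-cell type. Protein-coding genes were taken by symbol, from those starting with NDUF, SDHA, SDHB, SDHC, SDHD, UQCR, COX4 to COX8 or ATP5. This rule gave 102 of the 58735 genes in the deposited table, of which 39 belong by name to complex I, 4 to complex II, 9 to complex III, 17 to complex IV and 18 to complex V (the ATP synthase). The rule also takes in 12 assembly factors, 1 inhibitor of the ATP synthase (ATP5IF1) and 2 read-through genes, which are not subunits and were kept apart. The treated group was kept for 48 h in 0.5 mM methylparaben, the methyl ester of para-hydroxybenzoic acid and a common preservative, and the control group received ethanol. Each group had 2 poly(A)-selected RNA-seq libraries, for which separate cultures are not stated, so the spread behind each p-value is that between these libraries and may be technical.

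The respiratory chain passes electrons from NADH (complex I) and succinate (complex II) through ubiquinone, complex III and cytochrome c to oxygen at complex IV, and the proton gradient built on the way drives ATP synthesis at complex V. Most subunits are made from nuclear genes and imported, while a small core of complexes I, III, IV and V is encoded in mitochondrial DNA, so that both genomes contribute to the same enzymes. Assembly factors help to build the complexes without staying in them.

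The counts cover only part of each gene. Of the 766 annotated transcripts of these genes, 434 have bases that are exonic in no other transcript, and none of the other 332 had a read, so a gene was seen only where 1 transcript stands alone. Of all member reads, 65.9% fell on transcripts whose solitary bases are mostly 3′ UTR and 18.7% on transcripts whose solitary bases are intronic in a coding transcript. Library totals were 2368658 and 2182058 counts with ethanol and 3760982 and 2068486 with methylparaben, and a gene without a read could still lie at up to 1.27, 1.37, 0.798 and 1.45 CPM (counts scaled by library size) respectively, with 3 counts as the limit. The genes together held 0.223% (95% exact binomial interval 0.217 to 0.229) and 0.225% (0.218 to 0.231) of the reads with ethanol, and 0.256% (0.251 to 0.261) and 0.300% (0.292 to 0.307) with methylparaben. Such intervals and limits cover counting error only. UQCRFS1 alone had 1854, 1485, 3557 and 2692 of the 5273, 4901, 9635 and 6197 member reads, in the same library order. NDUFA10 had 230, 227, 778 and 480, and the higher share with methylparaben rests largely on these genes, so it does not describe the members at large.

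A total of 46 genes passed the filter on low counts, and 56 did not. The untested genes comprise 40 with 1 to 38 reads over all libraries and 16 with none. Core subunits are among them. UQCRC1, a core protein of complex III, had 0 reads over 1227 solitary bases, and SDHA, the flavoprotein of complex II, had 32 reads in all. Median solitary length was 2031 bases in tested and 709.5 bases in untested genes, and no level is read from a count of 0 here. Isoforms known from particular tissues were at or near 0: COX4I2, COX6A2 and COX6B2 had no reads, COX7A1 had 1 read, and COX7B2 had 2. Of these, COX6A2 and COX7B2 have only 73 and 166 solitary bases. COX6B1 and COX5B were as low, with 0, 1, 0 and 0 and with 0, 1, 1 and 1 reads over the 4 libraries. These counts therefore do not set the tissue isoforms apart.

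By the edgeR quasi-likelihood test with Benjamini-Hochberg adjustment over 8055 genes, 18 of the 46 tested genes were called at an adjusted p under 0.05, 13 higher and 5 lower with methylparaben. This is 39.1% of them, and 36.9% of all tested genes were called. Higher genes made up 28.3% of the members against 18.5% of all genes, and lower genes 10.9% against 18.4%. The median log2 fold change of the members was 0.46, and that of all genes 0.03. In 34 members (73.9%) the values of the 2 groups did not overlap, and the same held for 70.5% of all genes. In bulk RNA, a change in the share of cells that express a gene and a change in its RNA per cell cannot be told apart.

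**Figure D1:**
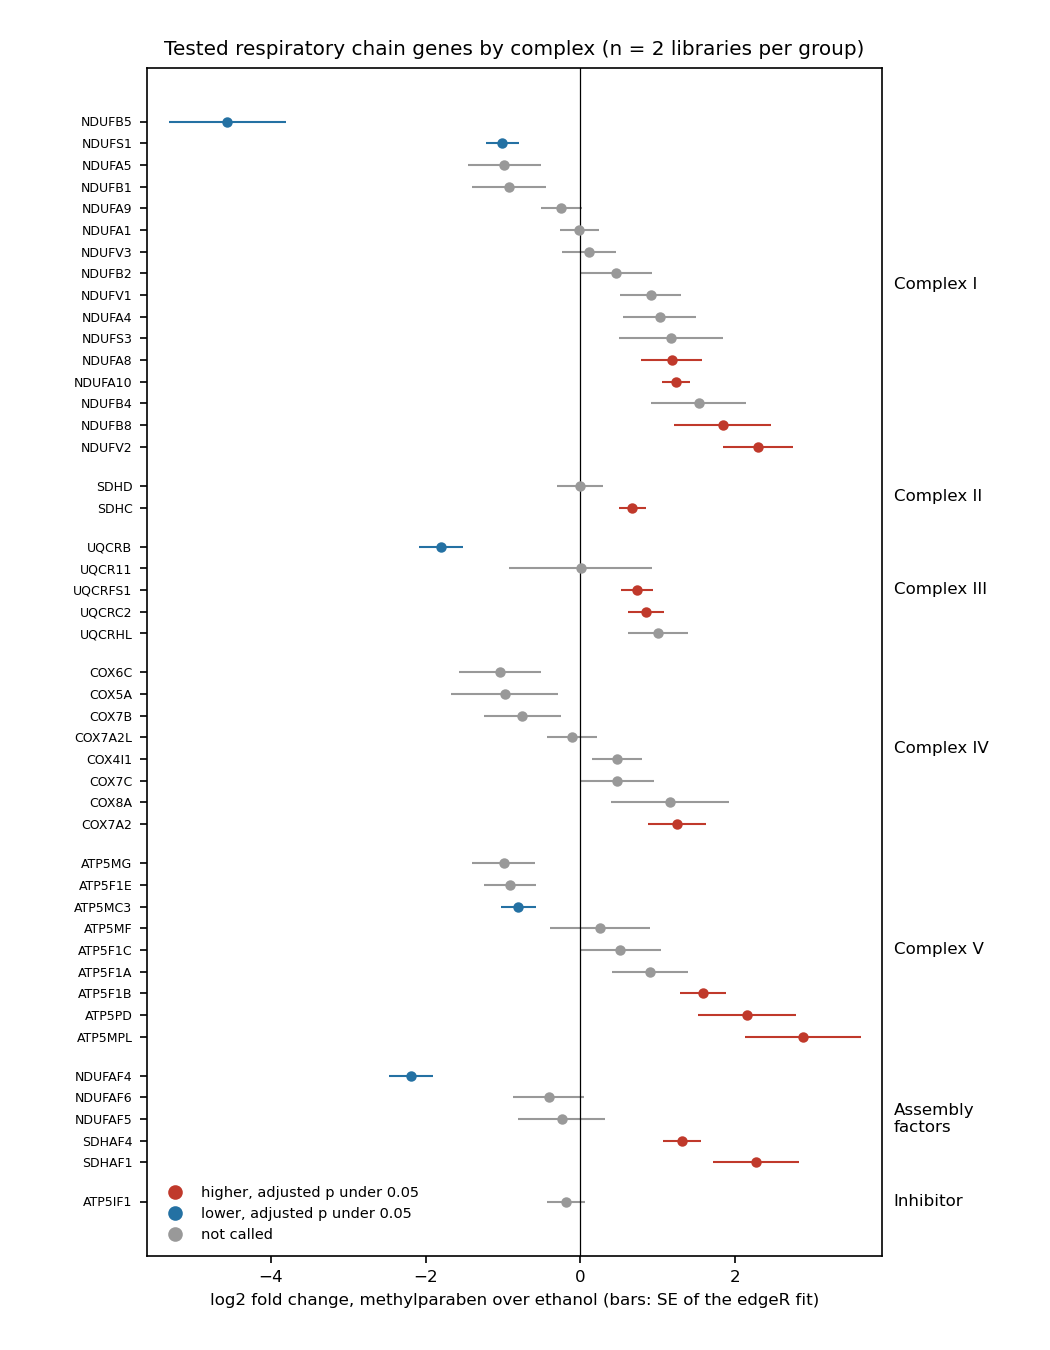
Log2 fold change (x axis, methylparaben over ethanol) of the 46 tested genes, grouped by complex, with bars for the SE of the edgeR fit. The 13 genes called higher and the 5 called lower are spread over the complexes, and NDUFB5 lies farthest to the left on 2 reads in the treated libraries.

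Both directions occurred within complexes I, III and V. Complex I had 4 higher and 2 lower of 16 tested (median log2 0.68), complex II 1 higher of 2 (0.33), complex III 2 higher and 1 lower of 5 (0.73), complex IV 1 higher of 8 (0.18) and complex V 3 higher and 1 lower of 9 (0.52). Among the assembly factors 2 were higher and 1 lower of 5 (median -0.24). Leaving out ethanol 1 reduced the 18 calls to 10, and 9 of the 18 genes were lost (edgeR adjusted p 0.0506 to 0.219). ATP5F1B, NDUFV2, NDUFB5, NDUFAF4, SDHAF4 and UQCRB were called in the same direction in every alternative that gave them a value.

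**Figure D2:**
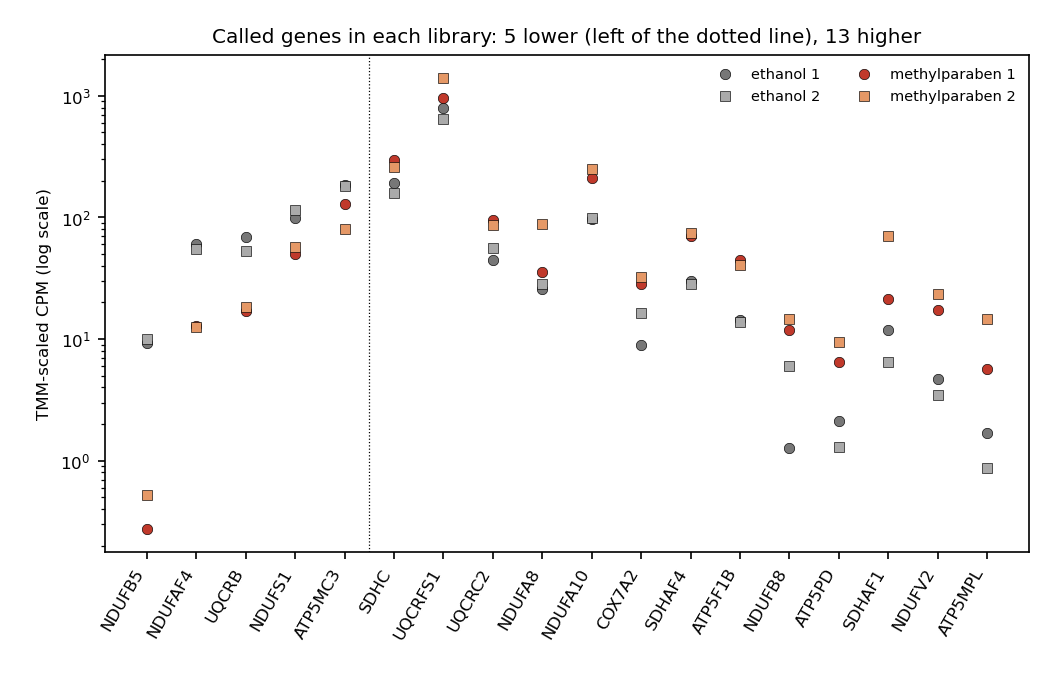
TMM-scaled CPM (y axis, log scale) of the 18 called genes in each of the 4 libraries, ordered by fold change, with ethanol in grey and methylparaben in red and orange. The 2 groups do not overlap in any of these genes, and the 2 treated libraries differ most for NDUFA8, SDHAF1 and ATP5MPL.

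Read densities were compared between genes as TMM-scaled CPM per kb of solitary bases. UQCRFS1, the Rieske iron-sulfur protein of complex III, was at 239 and 195 with ethanol and at 293 and 427 with methylparaben. NDUFA1, a small membrane-arm subunit of complex I, was at 263 and 301 with ethanol and at 214 and 351 with methylparaben. These stood above all other tested members, and their ranges over the libraries overlap each other. The next in order depended on the group. With ethanol it was SDHD (41.7 ± 11.9, SD, n = 2), followed by ATP5MC3 (33.5 ± 0.246). With methylparaben it was ATP5F1B (75.1 ± 4.402), followed by NDUFA8 (74.0 ± 44.4), and these neighbours lie within their spread of each other in both groups. UQCRFS1, NDUFA1 and NDUFA8 have 1 annotated transcript each, as do the lower-placed UQCRHL, SDHAF1 and COX8A. ATP5F1B had 0% of its reads on protein-coding transcripts. Genes with several transcripts are seen only in part, so this order is of read density and not of mRNA level.

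In complex I, subunits of the electron-input arm moved in both directions. NDUFS1, the large iron-sulfur subunit, had 99.9 and 115 CPM with ethanol and 50.3 and 57.0 CPM with methylparaben. Both treated libraries lay at about the same level below both controls. The log2 fold change was -1.01 (SE 0.22, edgeR adjusted p = 0.00643), and the call was lost on log2(FPKM + 1) and log2(FPKM + 0.1) (limma adjusted p = 0.206 and 0.198). NDUFV2, an iron-sulfur subunit next to the NADH site, had 11 and 8 reads with ethanol and 64 and 45 with methylparaben, or 4.07 ± 0.859 and 20.5 ± 4.34 CPM (SD, n = 2). The treated libraries were well above the controls, and the log2 fold change was 2.30 (SE 0.45, edgeR adjusted p = 0.00399). Its retained-intron transcript NDUFV2-204 had 0 reads in both controls and 16 and 14 in the treated libraries. This is 8.35-fold higher if 3 counts are taken for the control group and the treated counts are taken as exact.

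Accessory subunits of complex I gave 3 higher genes and 1 lower. NDUFA8, which faces the intermembrane space, had 25.9 and 28.1 CPM with ethanol and 35.9 and 89.0 CPM with methylparaben. All its reads were on a protein-coding transcript, and the treated libraries lay far apart, both above the controls. The log2 fold change was 1.18 (SE 0.40, edgeR adjusted p = 0.0401), and without methylparaben 2 it was 0.44 (adjusted p = 0.352). NDUFB8, of the membrane arm, had 3, 14, 44 and 28 reads in ethanol 1, ethanol 2, methylparaben 1 and methylparaben 2, all of them on a retained-intron transcript. Its log2 fold change was 1.84 (SE 0.63, edgeR adjusted p = 0.0428), and without ethanol 1 it was 1.10 (adjusted p = 0.219). NDUFB5, also of the membrane arm, had 22 and 23 reads with ethanol and 1 in each treated library. The ratio of methylparaben to ethanol was 0.0371 (95% interval from counting 0.00436 to 0.142, edgeR adjusted p = 0.00172). Of the NDUFB5 reads 59.6% were on a retained-intron transcript, and its protein-coding transcript NDUFB5-214 went from 18 reads to 1 over the groups.

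NDUFA1 was not called. It had 112 and 128 CPM with ethanol and 90.9 and 149 CPM with methylparaben, so the treated libraries lay on either side of the controls (log2 fold change -0.01, SE 0.25). The other complex I genes that were not called had log2 fold changes from -0.98 to 1.53. The latter belongs to NDUFB4, which passed an unadjusted p of 0.05 but not the adjusted one (edgeR adjusted p = 0.0758). NDUFA4, counted here by its name, is known as a subunit of complex IV. It had 5.10 and 6.06 CPM with ethanol and 13.1 and 9.42 CPM with methylparaben, which did not pass (edgeR adjusted p = 0.117).

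In complex II only the membrane anchors, which hold the ubiquinone site, could be tested. SDHC had 191 and 160 CPM with ethanol and 297 and 261 CPM with methylparaben. The treated libraries were higher and close together. The log2 fold change was 0.67 (SE 0.18, edgeR adjusted p = 0.0152), and the call was lost without ethanol 1 (adjusted p = 0.0573) or ethanol 2 (adjusted p = 0.150). Its partner SDHD had 48.1 and 72.3 CPM with ethanol and 71.8 and 47.1 CPM with methylparaben. Its groups overlap almost fully, at a log2 fold change of 0.00 with an SE of 0.29. The catalytic subunits SDHA and SDHB had too few reads to test.

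In complex III the catalytic Rieske protein UQCRFS1 had 788 and 643 CPM with ethanol and 968 and 1409 CPM with methylparaben. All its reads were on a protein-coding transcript, and the treated libraries were the higher ones. The log2 fold change was 0.73 (SE 0.21, edgeR adjusted p = 0.0217), with an adjusted p of 0.0663 without ethanol 1 and 0.141 without ethanol 2. UQCRC2, a core protein, had 45.1 and 55.8 CPM with ethanol and 94.7 and 87.4 CPM with methylparaben (log2 fold change 0.85, SE 0.23, edgeR adjusted p = 0.0166). Of its reads 57.5% were on retained-intron transcripts. Without these transcripts the log2 fold change was 0.43 (adjusted p = 0.304), and without ethanol 1 it was 0.68 (adjusted p = 0.148), so that complex III then kept 1 call, UQCRB.

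UQCRB, a small subunit at the ubiquinone site, went the other way. It had 69.3 and 52.8 CPM with ethanol and 16.9 and 18.3 CPM with methylparaben. The treated libraries agreed closely, far below the controls, at a log2 fold change of -1.80 (SE 0.29, edgeR adjusted p = 0.00139). UQCRHL, an intronless near-copy of the hinge subunit gene UQCRH, had 44.7 and 31.2 CPM with ethanol and 45.4 and 109 CPM with methylparaben. It was not called (edgeR adjusted p = 0.0669), and reads of the copies may be split between them, so its level is uncertain.

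Complex IV gave the single call COX7A2, the form of subunit 7A found in most tissues. It had 8.93 and 16.4 CPM with ethanol and 28.3 and 32.4 CPM with methylparaben, and 95.6% of its reads were on retained-intron transcripts. Both treated libraries were higher (log2 fold change 1.25, SE 0.37, edgeR adjusted p = 0.0256), but the call was lost without ethanol 1 (log2 0.86, adjusted p = 0.172) and with DESeq2 (adjusted p = 0.0863). The 7 other tested genes of complex IV ran from a log2 fold change of -1.04 (COX6C) to 1.16 (COX8A). COX8A had 2.55 and 4.33 CPM with ethanol and 2.99 and 13.6 CPM with methylparaben. Its difference rests on methylparaben 2, since it was 1.96 (adjusted p = 0.0326) without methylparaben 1 and -0.17 (adjusted p = 0.929) without methylparaben 2. COX7B had 8.93, 22.5, 8.43 and 10.5 CPM over the 4 libraries in the same order, with overlapping groups. Without methylparaben 1 complex IV had 3 calls in place of 1.

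In complex V the catalytic β subunit gene ATP5F1B had 14.5 and 13.9 CPM with ethanol and 44.3 and 40.8 CPM with methylparaben. The libraries of each group lay close together, and the log2 fold change was 1.59 (SE 0.30, edgeR adjusted p = 0.00321). None of its reads were on a protein-coding transcript. The transcript ATP5F1B-206, annotated as a processed transcript with all its solitary bases in introns of the coding transcripts, had 33, 32, 157 and 73 of them. ATP5PD, of the peripheral stalk, had 5, 3, 24 and 18 reads, all on retained-intron transcripts (log2 fold change 2.16, SE 0.63, edgeR adjusted p = 0.0239). Its adjusted p ran from 0.0651 to 0.172 when any 1 library was left out and was 0.0577 with the replicate number as a block.

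ATP5MPL, a small membrane subunit, had 4 and 2 reads with ethanol and 21 and 28 with methylparaben (log2 fold change 2.88, SE 0.75, edgeR adjusted p = 0.0139). Most of its reads (85.5%) were on protein-coding transcripts. Its call was lost without ethanol 1 (adjusted p = 0.0506) and without methylparaben 2 (adjusted p = 0.183). ATP5MC3 encodes the proton-carrying c subunit of the rotor. It had 185 and 183 CPM with ethanol and 129 and 81.1 CPM with methylparaben. Both treated libraries were below both controls (log2 fold change -0.80, SE 0.23, edgeR adjusted p = 0.0219). The call was lost without ethanol 1 (adjusted p = 0.0857), ethanol 2 (0.0537) or methylparaben 2 (0.103). Over all its tested genes complex V had 2, 2 and 1 calls in these alternatives in place of 4. On log2(FPKM + 1), summed over the transcripts of the gene, the sign for ATP5MC3 turned (log2 0.35, limma adjusted p = 0.349). ATP5F1E, of the central stalk, and ATP5MG, of the membrane part, had log2 fold changes of -0.91 (edgeR adjusted p = 0.0562) and -0.99 (0.0829) and were not called. The inhibitor ATP5IF1 had 56.6 and 50.2 CPM with ethanol and 46.0 and 48.1 CPM with methylparaben, at a log2 fold change of -0.18 with an SE of 0.24.

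Assembly factors held some of the clearest separations. NDUFAF4, of complex I assembly, had 60.8 and 55.4 CPM with ethanol and 12.8 and 12.6 CPM with methylparaben (log2 fold change -2.19, SE 0.29, edgeR adjusted p = 0.000522). The treated libraries stood at the same level, and 95.6% of the reads were on protein-coding transcripts. SDHAF4, which acts on the flavoprotein of complex II, had 29.8 and 28.1 CPM with ethanol and 70.5 and 74.3 CPM with methylparaben (log2 fold change 1.32, SE 0.24, edgeR adjusted p = 0.00303). SDHAF1, which acts on its iron-sulfur subunit, had 11.9 and 6.49 CPM with ethanol and 21.5 and 70.1 CPM with methylparaben (log2 fold change 2.27, SE 0.56, edgeR adjusted p = 0.0109). Methylparaben 2 was far above methylparaben 1 for SDHAF1, and all its reads were on a protein-coding transcript.

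The kind of transcript that carried the reads differed between the groups. Retained-intron transcripts carry intron sequence of a coding transcript inside an exon, though not always a whole intron. With ethanol such transcripts took 10.6% (95% exact binomial interval 9.76 to 11.4) and 11.6% (10.7 to 12.5) of the member reads. They took 20.4% (19.6 to 21.2) and 17.0% (16.1 to 18.0) with methylparaben. In all other protein-coding genes the share was 3.50% and 3.40% with ethanol and 5.94% and 5.88% with methylparaben. Both shares were higher in both treated libraries. Among the 46 tested genes 17 had over 50% of their reads off protein-coding transcripts. Of the 18 called genes, 7 were of this kind, namely NDUFA10, NDUFB8, UQCRC2, COX7A2, ATP5F1B, ATP5PD and NDUFB5.

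**Figure D3:**
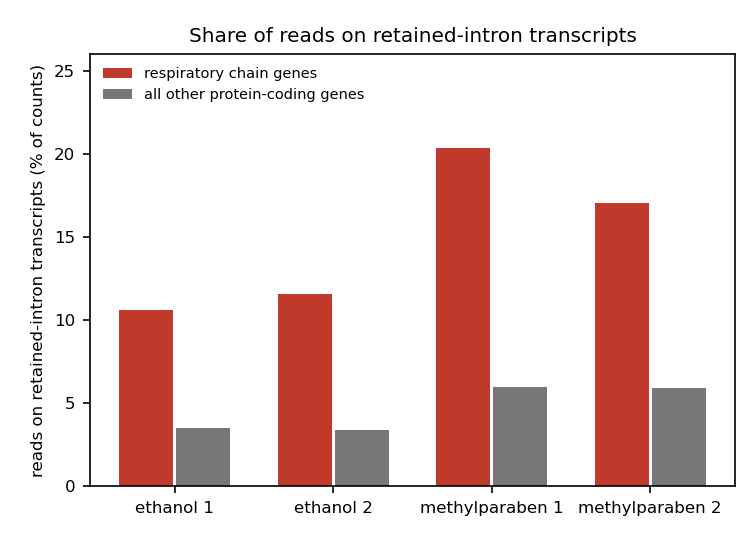
Percentage of counts (y axis) on retained-intron transcripts in each of the 4 libraries, for the respiratory chain genes (red bars) and for all other protein-coding genes (grey bars). Both shares are higher in the methylparaben libraries, and the respiratory chain genes have the larger share in each library.

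Fitted by transcript, 51 transcripts of 42 member genes were tested, of which 13 were higher (20.3% of all 9167 tested transcripts were) and 9 were lower (19.1% of all). Of the 16 retained-intron transcripts of the members 6 were higher, or 37.5% against 39.7% of all tested retained-intron transcripts. One was lower, NDUFB5-212 (6.25% against 6.02%). Of the 32 protein-coding transcripts 6 were higher (18.8% against 14.7%) and 8 were lower (25.0% against 25.4%). These shares are close to those of the same kinds of transcript in the whole table. The median log2 fold change was 1.02 for the members' retained-intron transcripts, as for all of that kind, and -0.03 for the protein-coding ones against -0.18.

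The 8 protein-coding transcripts that fell were UQCRB-201, NDUFAF4-201, COX7B-203, NDUFA10-201, ATP5MC3-201, ATP5F1E-201, ATP5MG-201 and NDUFS1-201. Their log2 fold changes ran from -2.91 for UQCRB-201 to -1.05 for NDUFS1-201. All 8 were read in UTRs alone, with no solitary base in the coding sequence. The same held for SDHC-202, which rose, and for uncalled ones such as NDUFA9-201, SDHD-201 and COX7C-203. This was therefore not particular to those that fell. The 6 that rose were SDHC-202, NDUFA8-201, NDUFV2-202, SDHAF1-201, SDHAF4-201 and UQCRFS1-201. NDUFV2-202, with 2, 5, 17 and 18 reads, kept its call in 1 of 9 alternatives (edgeR adjusted p 0.0734 to 0.441 with a library left out). NDUFS1-201 and SDHAF1-201 were not called without ethanol 2 (adjusted p = 0.0564 and 0.0692). COX7B-203 had 17 and 47 reads with ethanol and 13 and 4 with methylparaben (log2 fold change -2.23, SE 0.64, edgeR adjusted p = 0.0197), and the call was lost without ethanol 2 (adjusted p = 0.288). The processed transcript NDUFB9-203, too low to test, had 10 and 4 reads with ethanol and none with methylparaben. This is 5.59-fold lower if 3 counts are taken for the treated group and the ethanol counts are taken as exact. The 22 calls by transcript became 11 without ethanol 1, 13 without ethanol 2 and 12 with DESeq2. Of the 22, 18 have an adjusted p under 0.05 in the authors' deposited table.

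Introns kept whole in called retained-intron transcripts can be read at their ends. NDUFB8-205 and COX7A2-207 run past the start of an intron (2469 and 790 bases) but do not hold it whole. Whole introns are shown for ATP5MC3, NDUFA10 and UQCRC2, the genes in which a protein-coding transcript was tested beside the called retained-intron one. Each line gives 20 coding bases and 20 intron bases on the strand of the gene (GRCh38), 5′ to 3′, with the GT that opens the intron or the AG that closes it in capitals. ATP5MC3-205 keeps the 654-base intron between chr2:175179037-175179076 (minus strand, first line) and chr2:175178383-175178422. NDUFA10-212 keeps the 3042-base intron between chr2:240014719-240014758 (minus strand) and chr2:240011677-240011716. UQCRC2-204, which has 1216 solitary bases, keeps a 244-base intron between chr16:21962497-21962536 (plus strand) and chr16:21962741-21962780. That transcript also holds parts of introns of 3860 and 4303 bases. Its reads were not divided among them and do not measure the 244-base intron alone.
ATP5MC3 intron start: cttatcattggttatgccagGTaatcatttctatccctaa
ATP5MC3 intron end: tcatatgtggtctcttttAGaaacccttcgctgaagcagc
NDUFA10 intron start: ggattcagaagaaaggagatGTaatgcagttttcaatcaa
NDUFA10 intron end: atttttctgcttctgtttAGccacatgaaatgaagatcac
UQCRC2 intron start: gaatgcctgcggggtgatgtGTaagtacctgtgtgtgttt
UQCRC2 intron end: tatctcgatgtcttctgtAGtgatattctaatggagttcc

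**Figure D4:**
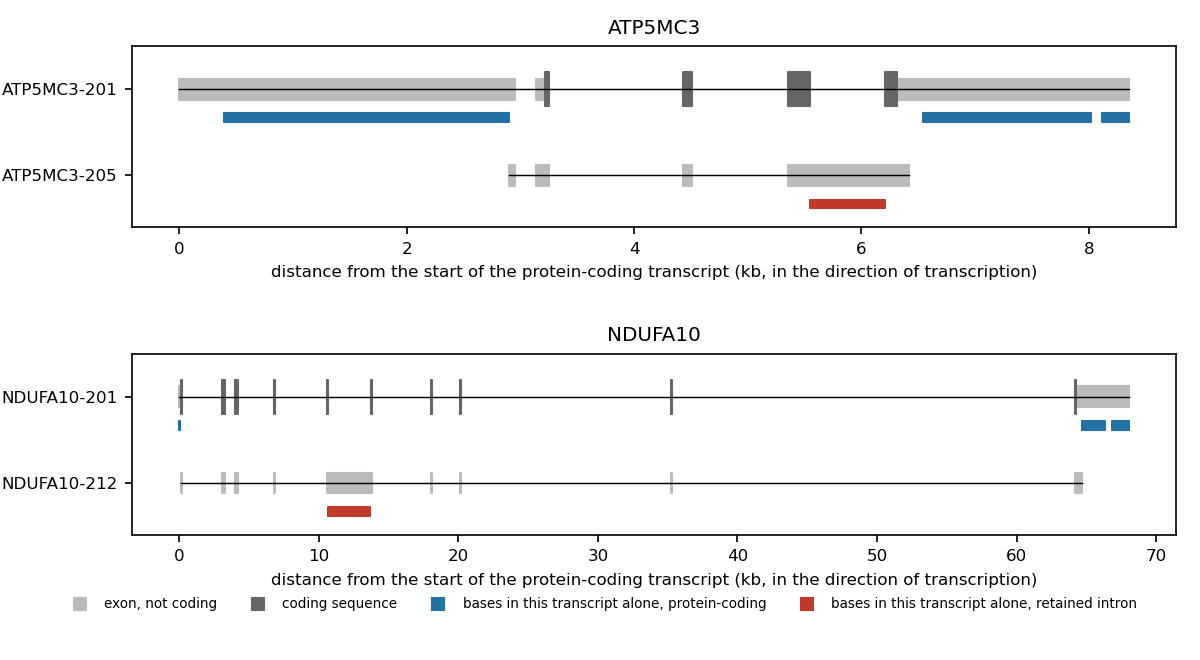
Maps of ATP5MC3 and NDUFA10 in kb from the start of the protein-coding transcript (x axis), with exons in light grey, coding sequence in dark grey, and the bases that lie in that transcript alone as blue (protein-coding) and red (retained intron) bars. The protein-coding transcripts are read at their UTRs, and the retained-intron transcripts inside 1 intron of 654 bases (ATP5MC3) and 1 of 3042 bases (NDUFA10).

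For ATP5MC3 the read counts of the 2 kinds of transcript crossed. The protein-coding ATP5MC3-201, read over its 5′ UTR (59.4% of its solitary bases) and 3′ UTR, had 406 and 399 reads with ethanol and 205 and 68 with methylparaben. The retained-intron ATP5MC3-205 had 29 and 23 reads with ethanol and 263 and 80 with methylparaben. In the treated libraries it had more reads than the coding transcript. Its share of the reads of the pair went from 6.67% (95% exact binomial interval 4.51 to 9.43) and 5.45% (3.49 to 8.07) to 56.2% (51.6 to 60.7) and 54.1% (45.7 to 62.3). ATP5MC3-201 was read over 4219 solitary bases and ATP5MC3-205 over 654. The crossing and the shares are therefore of reads and not of molecules. The log2 fold changes were -1.92 (SE 0.24, edgeR adjusted p = 0.000364) for the coding transcript and 2.33 (SE 0.35, edgeR adjusted p = 0.000992) for the other. Both calls held with each library left out in turn.

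For NDUFA10, an accessory subunit of the membrane arm of complex I, the gene was called higher while its coding transcript was lower. The gene had 97.8 and 98.3 CPM with ethanol and 212 and 251 CPM with methylparaben (log2 fold change 1.24, SE 0.18, edgeR adjusted p = 0.000995), and 94.3% of its reads were on retained-intron transcripts. NDUFA10-212 had 192 and 195 reads with ethanol and 760 and 470 with methylparaben (log2 fold change 1.42, SE 0.19, edgeR adjusted p = 0.000533). NDUFA10-201, read almost wholly in its 3′ UTR, had 36 and 32 reads with ethanol and 10 and 8 with methylparaben (log2 fold change -2.14, SE 0.51, edgeR adjusted p = 0.00874, and 0.0536 without ethanol 1). The direction of the gene thus followed which transcripts were summed. With only protein-coding transcripts the gene had a log2 fold change of -1.44 (edgeR adjusted p = 0.0306).

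**Figure D5:**
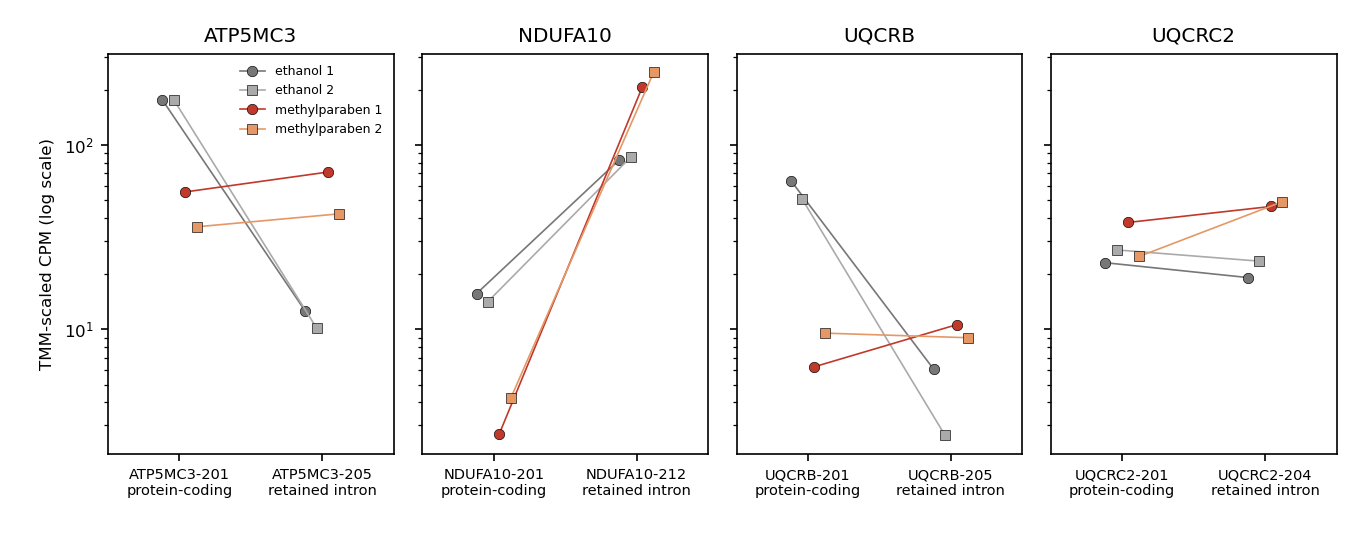
TMM-scaled CPM (y axis, log scale) of a protein-coding and a retained-intron transcript of ATP5MC3, NDUFA10, UQCRB and UQCRC2 (x axis), 1 line per library. Methylparaben libraries lie below ethanol on the coding side for ATP5MC3, NDUFA10 and UQCRB, and above it on the retained-intron side in all 4 genes.

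In UQCRB only the coding transcript was called. UQCRB-201 had 148 and 115 reads with ethanol and 23 and 18 with methylparaben (log2 fold change -2.91, SE 0.35, edgeR adjusted p = 0.000297). The retained-intron UQCRB-205 had 14, 6, 39 and 17 reads and was not called (log2 fold change 1.17, SE 0.56, edgeR adjusted p = 0.122). UQCRC2 differed again: its retained-intron UQCRC2-204 had 44, 53, 171 and 93 reads (log2 fold change 1.17, SE 0.29, edgeR adjusted p = 0.0100), and its coding transcript UQCRC2-201 was not called (log2 fold change 0.35). Of the 4 members with both kinds tested, ATP5MC3 and NDUFA10 had the coding transcript called lower and the retained-intron one higher, a pattern held by 10.1% of 424 such genes. A within-gene contrast, which tests whether transcripts of 1 gene moved differently, called ATP5MC3 (edgeR adjusted p = 1.99e-07), NDUFA10 (1.34e-05) and UQCRB (3.22e-05), 3 of 8 members (37.5%), and 40.6% of the 1172 genes that could be tested. UQCRC2 was not called by it (adjusted p = 0.207).

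Promoters were searched for letters known from regulators of respiratory chain genes, which the choice by name did not use. RefSeq promoters (GRCh38.p14, 250 bases before to 50 after the start) were matched for 82 of the 102 genes. GCGC, any base and then TGCGC, a form of the site known for NRF1 (a transcription factor named nuclear respiratory factor), was found on either strand in 20 of these (24.4%) and in 5.78% of all 35116 promoters. The letters CCGGAAG, the core of ETS-family sites such as that of GABP, were in 23 (28.05%) and in 10.3% of all promoters. The 35116 promoters were not limited to protein-coding genes or to 1 promoter per gene, as those of the members were. The 2 sets are therefore unlike, and their shares were not tested against each other. Of the genes with a promoter, the NRF1 letters were in 4 of 11 higher, 0 of 2 lower and 6 of 23 not called. The ETS letters were in 1 of 11 higher, 2 of 2 lower and 7 of 23 not called. A match is a description of letters and not a site in use. The 4 matches in higher genes are shown on the strand of the gene with the matched letters in capitals, beginning 31 (UQCRFS1), 21 (SDHAF4), 17 (ATP5MPL) and 4 (NDUFA8) bases before the annotated start. NDUFA8 holds 2 overlapping matches. The windows are chr19:29213163-29213202 (minus strand), chr6:70566889-70566928 (plus), chr14:103921527-103921566 (minus) and chr9:122159758-122159803 (minus).
UQCRFS1: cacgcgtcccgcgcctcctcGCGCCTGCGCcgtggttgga
SDHAF4: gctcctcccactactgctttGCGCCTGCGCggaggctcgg
ATP5MPL: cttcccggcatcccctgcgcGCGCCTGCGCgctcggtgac
NDUFA8: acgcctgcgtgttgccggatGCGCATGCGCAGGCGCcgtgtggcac

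The subunits encoded in mitochondrial DNA were mostly lower in the same fit. Of these 13 mRNAs 12 were called lower, with a median log2 fold change of -1.32, against 4 lower and 11 higher of 40 tested nuclear subunits (median 0.47). MT-ATP6, which had the smallest p of that list, had a log2 fold change of -2.22 (SE 0.20, edgeR adjusted p = 8.86e-05). The 13 mRNAs together held 189561 and 154635 CPM with ethanol and 74547 and 93209 CPM with methylparaben, and the part of that share in the nuclear values was not tested. No test compared the 2 sets of genes.

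Other genes around the respiratory chain were counted in lists. Of 40 assembly factors and cytochrome c genes outside the name rule 24 were tested, 2 higher and 4 lower (median log2 0.19), among them COA7 at -0.995, COX16 at -1.48 and FOXRED1 at 3.03. Of 20 genes of mitochondrial DNA expression 13 were tested, 4 higher and 1 lower (median 0.21), among them SSBP1, the mitochondrial single-strand DNA-binding protein, at 2.41 with 97.6% of its reads on retained introns. MTERF3 (3.40) and POLG2 (1.08) were also higher. Of 15 regulators of mitochondrial biogenesis 5 were tested, with GABPB2, a subunit of GABP, lower (-2.16) and the coactivator gene PPRC1 higher. PPRC1 had 1 read with ethanol and 33 with methylparaben, a ratio of 27.5 with a counting interval of 4.61 to 1120. Of 19 genes of the TCA cycle and pyruvate dehydrogenase 6 were tested, with PDHA1, its E1 α subunit, at 3.72, DLST at 1.08 and DLD at -1.03. PDHA1 had 12 and 9 reads with ethanol and 218 and 115 with methylparaben. Leaving out ethanol 2 cut the calls of these lists from 6 to 2 (assembly), from 5 to 2 (DNA expression) and from 3 to 1 (TCA cycle), and leaving out ethanol 1 from 6 to 2, from 5 to 2 and, for biogenesis, from 2 to 1. Without methylparaben 2 assembly had 2 and DNA expression 3, and without methylparaben 1 biogenesis had 1.

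Markers of several other cell types were at or near 0. All 5 lung epithelial, all 4 blood and immune and both hepatocyte markers had no reads in any library, while the fibroblast and endothelial lists summed to at most 2.60 and 0.544 CPM. Here too only solitary bases are seen, and their length is not given for the markers. CYC1 and POLRMT, of the lists around the respiratory chain, also had no reads. The absence of a cell type is therefore not read from a count of 0. Epithelial markers summed to 8.22 to 17.0 CPM, with CDH1, EPCAM and KRT19 at 0 and KRT8 and KRT18 not called. Mesenchymal markers summed to 1344 and 1839 CPM with ethanol and 637 and 569 CPM with methylparaben, with VIM and AXL lower. AXL alone had 1253 and 1767 CPM with ethanol and 599 and 534 CPM with methylparaben, while FN1 and CDH2 were too low to test.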

How the data were processed

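The authors deposited, for each annotated transcript, unnormalised read counts, FPKM values and log2 of FPKM plus 1, per the file headers. Their table adds a p-value with its adjusted form from the authors' own comparison. The submitters' processing notes name GRCh38 and, with no version or role, edgeR, limma and DESeq2. The aligner and counting program were not given in the sources used here. All 206601 transcripts were found in GENCODE release annotation at the same coordinates, from which the solitary bases were derived.

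The members, lists and tests were chosen with earlier results of these data known. Counts were summed per Ensembl gene (or kept per transcript) and passed through edgeR's default expression filter (filterByExpr). The filter asks for about 10 counts, scaled by library size, in at least 2 libraries, and for 15 counts in total. A gene could thus pass through the group where it is high alone, as ATP5PD, ATP5MPL and NDUFB5 did, among others. Counts were then scaled by TMM and tested with the two-sided quasi-likelihood F-test of edgeR 4.0.16 (R 4.3.3) over the whole table. Benjamini-Hochberg adjustment was used with a threshold of 0.05. The SE is the log2 fold change over the square root of F. Where a library was left out, the lone library of its group was assumed to vary like the other group. Sequences at intron ends come from the GENCODE transcripts and promoters from RefSeq.

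Named were every called gene and transcript, the 3 tested genes of highest mean FPKM per complex, and up to 3 called genes of each other list by smallest p. NDUFA4, NDUFB4, UQCRB-205, UQCRC2-201 and genes named for low or no reads were chosen after their values were seen. Alternatives were RLE scaling, DESeq2 1.42.0, a block for the replicate number, no filter or a stricter one (5 CPM in 2 libraries), each library left out, gene sums without retained-intron transcripts or with protein-coding ones alone, and limma 3.58.1 on log2 of the deposited FPKM plus 1 or 0.1. Chosen after seeing the data were the within-gene contrast (diffSpliceDGE), sums of transcripts that passed the transcript filter, and a crossed block. Replicates correlated at 0.963 (ethanol) and 0.957 (methylparaben) in log2 CPM across genes.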

Additional observations from a re-analysis of the deposited data

How the results depend on the processing

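The 18 genes called ranged from 10 to 23 and the 22 transcripts from 11 to 22 with a library left out, limma on log2(FPKM + 0.1) called 10 genes, and DESeq2 called 12 transcripts. Leaving out a library gave 0 to 1 calls for complex II, 1 to 4 for III, 0 to 3 for IV and 1 to 5 for V, and 2 to 7 for outside assembly factors, 2 to 5 for mitochondrial DNA expression, 1 to 2 for biogenesis and 1 to 3 for the TCA cycle. DESeq2 called 0 in complex IV, 2 assembly factors, 3 DNA expression genes and 1 biogenesis gene. Limma on log2(FPKM + 1) and on log2(FPKM + 0.1) called 0 in complex II, 1 assembly factor and 1 TCA cycle gene, and with 0.1 also 1 in III, 0 in IV and 3 DNA expression genes. Sums without retained introns or of protein-coding transcripts alone called 0 in complex IV, the first with 3 DNA expression genes and the second with 1 biogenesis gene, while sums of filtered transcripts called 2 in IV. In complex IV no uncalled gene passed an unadjusted p of 0.05 with edgeR.

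NDUFA10 turned from 1.24 to -1.48 without retained-intron transcripts and to -1.44 with protein-coding ones alone, since the sums then leave out most of its reads. ATP5MC3 turned to 0.35 and 0.36 on log2 FPKM with 1 and 0.1 added. FPKM divides the counts of each transcript by its length before they are summed. The coding ATP5MC3-201 fell (log2 -1.92) and the retained-intron ATP5MC3-205 rose (log2 2.33). The part of this weighting in the changed sign was not tested. Signs also changed in genes that were not called: NDUFA1 (0.11 without ethanol 2, 0.31 without methylparaben 1, -0.37 without methylparaben 2, 0.075 without retained introns, 0.12 with protein-coding transcripts, 0.028 with filtered transcripts), SDHD (0.0035 without a filter, 0.0022 with the stricter one, 0.33 without ethanol 2, 0.29 without methylparaben 2, -0.36 without methylparaben 1, 0.079 without retained introns, 0.14 with protein-coding transcripts, 0.037 with filtered transcripts), COX8A (-0.17 without methylparaben 2, 1.96 without methylparaben 1) and COX7B (0.080 without ethanol 2, -1.28 without ethanol 1, 0.38 and 0.43 on log2 FPKM).

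The labels number the replicates alike and do not say whether same-numbered libraries belong together. Deviations of same-numbered libraries correlated at -0.15 across genes, a single value that cannot decide whether they were paired. With the replicate number as a block 17 genes (12 higher, 5 lower) and 20 transcripts were called. A crossed block, which pairs unlike numbers, called 22 genes and 21 transcripts.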
